A study of Caenorhabditis elegans with 9 samples.

Results

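The UDP-glucuronosyltransferase (UGT) family of Caenorhabditis elegans was followed across worms left unexposed and worms exposed to a low (0.003% w/v) or a high (0.03% w/v) dose of sodium arsenite. The members are the genes whose symbol begins with ugt- and which have an array probeset assigned to that gene alone. This gave 64 genes of the 17118 genes measured, each read from the brightest such probeset by its mean over the 9 arrays. RefSeq lists 67 protein coding ugt genes, and ugt-34, ugt-49 and ugt-65 had no such probeset. All worms were of the wild type strain N2, kept in C. elegans habitation media (CeHM), a liquid medium free of bacteria. Exposed worms were held in arsenite for 6 h at 22 °C, and 3 samples of RNA were extracted from each of the 3 groups and hybridized to 1 Affymetrix C. elegans array each. The sources differ on the larval stage of the worms, which is L3 in the sample labels, L1 in the methods and L4 in the results text. RNA came from whole worms, so fewer cells of a tissue and less RNA per cell cannot be told apart.

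UGT enzymes sit in the membrane of the endoplasmic reticulum and transfer a sugar from a UDP-sugar donor to small, mostly lipophilic molecules, which makes these more soluble and easier to export. They belong to phase II of detoxification, after the cytochrome P450 enzymes of phase I and beside the glutathione S-transferases, and transporters of the ABC class then carry the conjugates out of the cell. Mammalian UGT enzymes are best known for adding glucuronic acid to bilirubin, hormones and drugs, whereas in C. elegans foreign compounds are known to be joined to glucose as well. The acceptor molecules of the single worm genes are not given in the sources used here, so the members are described below by how they changed and by their place among neighbouring genes.

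Each probeset has 1 log2 signal on each array, as computed by the authors, so a difference of 1 is a change of 2 fold. Medians of the 9 arrays ranged from 8.42 to 8.52. Within groups, pairs of arrays had correlations across genes of 0.940 to 0.952, although genes are no independent replicates. A gene was called differentially expressed at a Benjamini-Hochberg adjusted p of at most 0.05 over all 17118 genes together with at least 1.2 fold change, in 1 limma model of the 3 groups. Estimates in parentheses are log2 fold changes from that model. Both doses are set against the same 3 control arrays. The labels call the samples biological replicates without naming separate cultures. The p-values thus cover only the spread among these 9 samples, which may be technical. Precision is limited by the number of arrays. Signals of different probesets depend on their probes as well as on the transcript, so levels are compared only within a gene. A group mean is called dim below 6.26, the level under which 25% of all genes lie. Of the 64 members, 11 are measured by a probeset marked _s_at, which may also detect related transcripts. In what follows the 3 values of a group are those of replicates 1, 2 and 3.

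At the high dose 30 of the 64 ugt genes (46.9%) were differentially expressed, 19 up regulated and 11 down regulated. Among all genes tested, 20.0% were called in either direction, 9.0% up and 11.0% down. The up regulated members were ugt-2, ugt-5, ugt-7, ugt-10, ugt-11, ugt-13, ugt-18, ugt-19, ugt-20, ugt-25, ugt-28, ugt-29, ugt-31, ugt-48, ugt-50, ugt-51, ugt-54, ugt-58 and ugt-66. Down regulated were ugt-6, ugt-22, ugt-32, ugt-33, ugt-37, ugt-41, ugt-46, ugt-47, ugt-57, ugt-60 and ugt-61. The change was at least 2 fold in 11 of the increases and 8 of the decreases, and at least 4 fold in 5 increases and 2 decreases. These counts include ugt-54, with a dim control mean, and ugt-33 and ugt-37, with dim means at the high dose, for which no exact fold can be read. The median log2 fold change of the family was 0.06, beside -0.05 over all genes. The control and high dose arrays did not overlap for 37 members (57.8%), where 38.4% of all genes did not overlap.

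**Figure D1:**
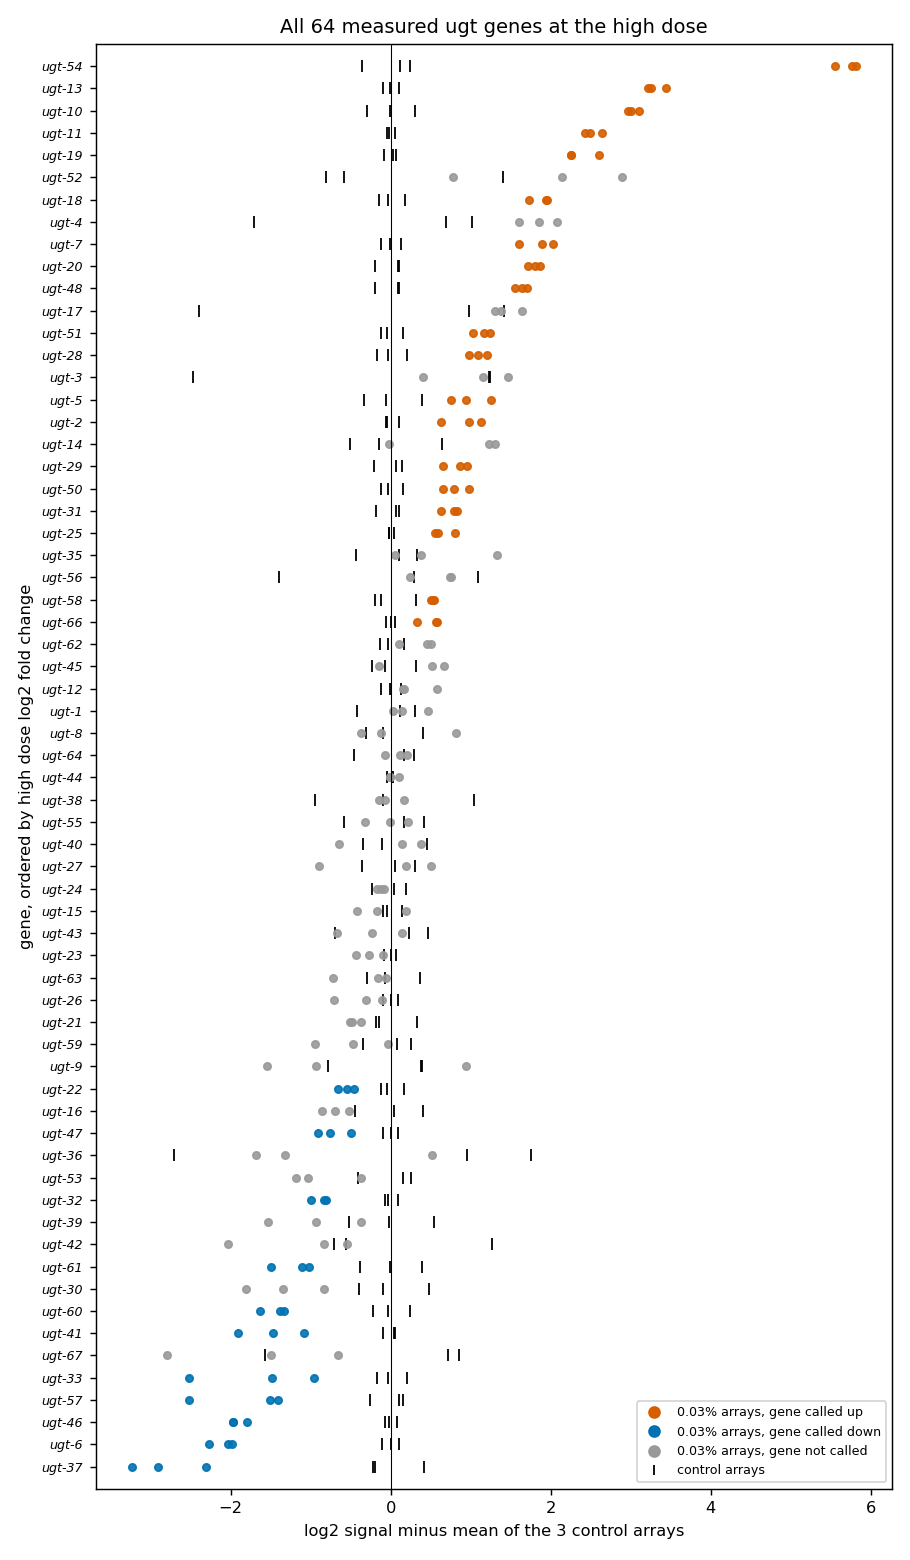
Log2 signal of each of the 64 ugt genes minus the mean of its 3 control arrays, on the horizontal axis, for the 3 control arrays (black ticks) and the 3 high dose arrays (dots). Genes are ordered by their high dose log2 fold change, from ugt-37 at the bottom to ugt-54 at the top, and dots are coloured where the gene was called up (19 genes) or down (11 genes).

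At the low dose 9 ugt genes (14.1%) were called, against 1.55% of all genes. They were 8 up regulated genes (12.5%) and 1 down regulated gene (1.56%), while 1.05% of all genes were called up and 0.508% down. At an unadjusted p under 0.05 stood 19 members (29.7%), against 11.7% of all genes. The median log2 fold change of the family was 0.16, against -0.01 over all genes. The members up regulated at the low dose were ugt-7, ugt-10, ugt-11, ugt-13, ugt-19, ugt-20, ugt-48 and ugt-66, and ugt-6 was the member down regulated. Each of these 9 genes was also called at the high dose, in the same direction, and 0 members were called in opposite directions. The low dose calls of ugt-6, ugt-11, ugt-20 and ugt-66 were lost in a fit without the high dose arrays. Low dose and control arrays did not overlap for 21 members (32.8%), where 18.2% of all genes did not overlap.

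The largest increase of the family at the low dose was that of ugt-13 (H23N18.1), a gene the study itself picked from these samples for its increase at both doses, so its direction is not independent evidence. Its signal was 7.59, 7.67 and 7.79 in controls, 10.34, 10.76 and 10.32 at 0.003% and 10.91, 11.12 and 10.94 at 0.03%. All 3 arrays of either dose lay above all control arrays, by 6.89 fold at the low dose (estimate 2.78, SE 0.15, limma adjusted p = 1.12e-04). With 0.03% arsenite this became 9.88 fold (estimate 3.30, SE 0.15, limma adjusted p = 1.19e-05). Its family member ugt-10 (T19H12.11), from the same stretch of chromosome V, read 6.48, 6.76 and 7.09 in controls, 8.85, 9.02 and 9.57 at 0.003% and 9.88, 9.78 and 9.75 at 0.03%. It too was clear of the controls at both doses, at 5.18 fold (estimate 2.37, SE 0.22, limma adjusted p = 0.0023). The high dose gave 8.14 fold (estimate 3.03, SE 0.22, limma adjusted p = 1.06e-04). The gene ugt-11 (T19H12.10), from this stretch too, read 8.15, 8.12 and 8.22 in controls, 9.52, 9.21 and 9.07 at 0.003% and 10.59, 10.81 and 10.66 at 0.03%. As for ugt-13 and ugt-10, its 3 groups formed 3 separate steps without overlap. It lay 2.15 fold above control at the low dose (estimate 1.10, SE 0.14, limma adjusted p = 0.00977). At the high dose it was 5.75 fold (estimate 2.52, SE 0.14, limma adjusted p = 2.91e-05).

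Separate steps were also seen for ugt-19 (K08B4.3) and ugt-20 (K08B4.4), which lie next to each other, and for ugt-7 (C13D9.9). The signal of ugt-19 was 7.84, 7.81 and 7.69 in controls, 9.12, 8.99 and 9.45 at 0.003% and 10.04, 10.38 and 10.03 at 0.03%. That amounts to 2.65 fold at the low dose (estimate 1.40, SE 0.16, limma adjusted p = 0.00623). With 0.03% arsenite this became 5.17 fold (estimate 2.37, SE 0.16, limma adjusted p = 7.08e-05). For ugt-20 the arrays read 8.50, 8.80 and 8.79 in controls, 9.74, 9.51 and 9.85 at 0.003% and 10.50, 10.42 and 10.57 at 0.03%. Its increase was 2.00 fold at the low dose (estimate 1.00, SE 0.14, limma adjusted p = 0.0138). The high dose gave 3.47 fold (estimate 1.80, SE 0.14, limma adjusted p = 1.22e-04), and the low dose call was lost without low dose replicate 1 or 3 (adjusted p from 0.0574 to 0.0578 by limma). The gene ugt-7 read 7.41, 7.67 and 7.52 in controls, 8.78, 8.71 and 8.73 at 0.003% and 9.57, 9.43 and 9.14 at 0.03%, with no overlap between any of the groups. It rose 2.30 fold at the low dose (estimate 1.2, SE 0.14, limma adjusted p = 0.00629). At the high dose it was 3.59 fold (estimate 1.84, SE 0.14, limma adjusted p = 1.12e-04).

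A higher signal at the low than at the high dose set ugt-48 (C18C4.3) apart from these genes. Its arrays read 10.16, 10.15 and 9.86 in controls, 12.14, 12.37 and 12.14 at 0.003% and 11.70, 11.61 and 11.76 at 0.03%. Every low dose array lay above every high dose array, and both groups lay above the controls, by 4.47 fold at the low dose (estimate 2.16, SE 0.13, limma adjusted p = 1.95e-04). With 0.03% arsenite this became 3.10 fold (estimate 1.63, SE 0.13, limma adjusted p = 1.46e-04). The difference of high against low dose, -0.53 (SE 0.13, limma adjusted p = 0.0308), passed the test, but that call was lost without any 1 of the 6 exposed arrays (adjusted p from 0.0569 to 0.0978 by limma). The smallest of the low dose increases was that of ugt-66 (C23G10.6), which read 11.07, 11.02 and 10.96 in controls, 11.58, 11.76 and 11.66 at 0.003% and 11.59, 11.58 and 11.35 at 0.03%. It was 1.57 fold at the low dose (estimate 0.65, SE 0.11, limma adjusted p = 0.0379). The high dose gave 1.41 fold (estimate 0.49, SE 0.11, limma adjusted p = 0.0196). Both calls lie close to the threshold. At the low dose it was lost without any 1 array other than high dose replicate 3 (adjusted p from 0.0705 to 0.147 by limma), and at the high dose without control replicate 2 or 3 or high dose replicate 1 or 2 (adjusted p from 0.0604 to 0.07 by limma).

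The member that fell at both doses, ugt-6 (ZC455.4), is measured by an _s_at probeset. Its signal was 11.73, 11.52 and 11.63 in controls, 10.98, 10.99 and 10.93 at 0.003% and 9.60, 9.64 and 9.35 at 0.03%, stepping down from group to group without overlap. The log2 fold change was -0.66 at the low dose (SE 0.12, limma adjusted p = 0.0442) and -2.10 at the high dose (SE 0.12, limma adjusted p = 3.00e-05), a 4.27 fold decrease. Its low dose call was lost without any 1 array other than high dose replicate 3 (adjusted p from 0.0724 to 0.159 by limma), whereas its high dose call was kept in every fit made.

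**Figure D2:**
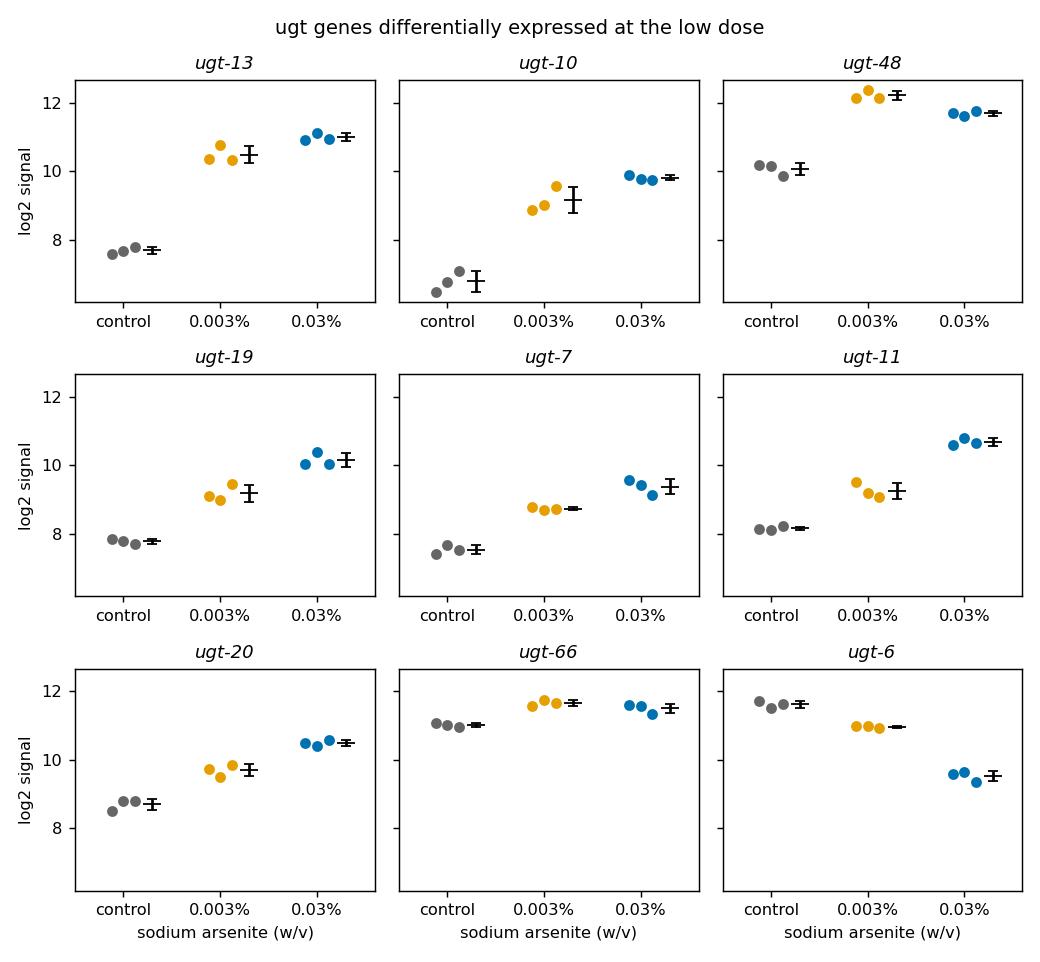
Log2 signal (vertical axis, same scale in all panels) of the 9 ugt genes called at the low dose, in control worms and at 0.003% and 0.03% sodium arsenite. Dots are single arrays, and the bar beside them is the mean with its SD (n = 3). Groups rise stepwise without overlap for ugt-7, ugt-10, ugt-11, ugt-13, ugt-19 and ugt-20, fall stepwise for ugt-6, and stand higher at the low than at the high dose for ugt-48. The step between the doses did not pass the test for ugt-10 and ugt-13.

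The remaining 11 increases at the high dose were not called at the low dose. The gene ugt-54 (T25B9.7) read 3.22, 3.09 and 2.61 in controls, 3.41, 5.78 and 3.90 at 0.003% and 8.53, 8.74 and 8.79 at 0.03%. All its high dose arrays stood above the other 6, and the test passed against control (estimate 5.71, SE 0.56, limma adjusted p = 3.97e-04) and against the low dose (estimate 4.33, SE 0.56, limma adjusted p = 0.00194). Its control and low dose means are dim, so no exact fold can be read from these estimates. Its low dose arrays were scattered and did not pass the test against control (estimate 1.39, SE 0.56, limma adjusted p = 0.39). The signal of ugt-18 (ZC443.5) was 9.64, 9.52 and 9.84 in controls, 9.77, 9.88 and 9.83 at 0.003% and 11.61, 11.39 and 11.62 at 0.03%. It rose 3.67 fold at the high dose (estimate 1.87, SE 0.13, limma adjusted p = 6.77e-05), and at the low dose the log2 fold change was 0.16 (95% interval -0.13 to 0.45). The probeset of ugt-51 (C03A7.11), an _s_at probeset, read 8.06, 8.27 and 7.99 in controls, 7.28, 7.69 and 8.09 at 0.003% and 9.27, 9.36 and 9.14 at 0.03%. It rose 2.21 fold over control (estimate 1.15, SE 0.21, limma adjusted p = 0.00688), while 2 of its low dose arrays lay below all control arrays, without a call there (estimate -0.42, SE 0.21, limma adjusted p = 0.491). For ugt-28 (C10H11.4) the arrays read 8.55, 8.40 and 8.77 in controls, 8.73, 8.40 and 8.54 at 0.003% and 9.55, 9.78 and 9.66 at 0.03%, with low dose and control overlapping and the high dose 2.13 fold above control (estimate 1.09, SE 0.15, limma adjusted p = 0.0017).

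Increases under 2 fold at the high dose were found for ugt-2, ugt-5, ugt-25, ugt-29, ugt-31, ugt-50, ugt-58 and ugt-66, with log2 fold changes from 0.49 to 0.98. Among these, ugt-25 (C10H11.3) had a mean signal of 11.89 ± 0.03 (SD, n = 3) in controls and 12.54 ± 0.14 (SD, n = 3) at 0.03%. For ugt-50 (T07C5.1) the means were 10.60 ± 0.14 (SD, n = 3) and 11.41 ± 0.16 (SD, n = 3). Both high dose calls were kept in every fit made. The call of ugt-58 was lost without any 1 array other than control replicate 3 (adjusted p from 0.0617 to 0.146 by limma). That of ugt-2 was lost without any 1 control array or high dose replicate 2 or 3 (adjusted p from 0.0534 to 0.0741 by limma), and that of ugt-5 without control replicate 1 or high dose replicate 3 (adjusted p from 0.0513 to 0.0538 by limma). For ugt-29 the same held without control replicate 3 or high dose replicate 1 or 3 (adjusted p from 0.0556 to 0.0628 by limma), and for ugt-31 without control replicate 2 or high dose replicate 3 (adjusted p from 0.0501 to 0.0529 by limma).

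Among the decreases at the high dose, the 3 group means of ugt-37 (F10D2.6) are all dim, so its size cannot be set against the others. It read 6.28, 5.64 and 5.67 in controls, 4.03, 3.16 and 6.02 at 0.003% and 2.63, 3.56 and 2.95 at 0.03%. The high dose arrays lay below all controls (estimate -2.82, SE 0.67, limma adjusted p = 0.0236), but the call was lost without any 1 control array or high dose replicate 1 or 3 (adjusted p from 0.0586 to 0.0782 by limma). The decrease of ugt-46 (B0310.5), on an _s_at probeset, was more even, with 11.36, 11.21 and 11.26 in controls, 10.47, 10.87 and 10.86 at 0.003% and 9.32, 9.31 and 9.49 at 0.03%. It fell 3.75 fold at the high dose (estimate -1.91, SE 0.14, limma adjusted p = 9.79e-05) and its low dose arrays lay between the other groups without passing the test (estimate -0.55, SE 0.14, limma adjusted p = 0.152). The gene ugt-57 (F01E11.1) read 8.99, 9.04 and 8.64 in controls, 9.19, 8.99 and 8.91 at 0.003% and 7.38, 6.37 and 7.48 at 0.03%, so that control and low dose overlapped and the high dose stood 3.51 fold lower (estimate -1.81, SE 0.30, limma adjusted p = 0.00464). The same pattern was seen for ugt-60 (C07A9.6), with 9.58, 9.76 and 10.04 in controls, 9.99, 9.96 and 9.56 at 0.003% and 8.16, 8.46 and 8.42 at 0.03%. It fell 2.73 fold (estimate -1.45, SE 0.18, limma adjusted p = 0.00117).

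The arrays of ugt-41 (F10D2.11) read 8.72, 8.58 and 8.71 in controls, 7.66, 8.27 and 7.87 at 0.003% and 7.59, 7.20 and 6.76 at 0.03%. Its low dose arrays lay below the controls as well, without a call (estimate -0.73, SE 0.24, limma adjusted p = 0.268), and it fell 2.80 fold at the high dose (estimate -1.48, SE 0.24, limma adjusted p = 0.00403). The gene ugt-61 (F39G3.1) read 9.15, 8.37 and 8.75 in controls, 9.36, 9.14 and 8.59 at 0.003% and 7.65, 7.26 and 7.74 at 0.03%. Its high dose arrays were below all controls (estimate -1.21, SE 0.27, limma adjusted p = 0.0186), and the call was lost without control replicate 1 or 3 or high dose replicate 2 (adjusted p from 0.0549 to 0.0634 by limma). For ugt-33 (C35A5.2) the values were 7.25, 7.63 and 7.39 in controls, 7.26, 7.25 and 6.75 at 0.003% and 4.90, 6.47 and 5.94 at 0.03%. Its high dose mean is dim. The decrease varied among the high dose arrays (estimate -1.66, SE 0.38, limma adjusted p = 0.0194) and lost its call without control replicate 2 or 3 (adjusted p from 0.0554 to 0.0668 by limma). In a fit without the low dose arrays the calls of ugt-33 and ugt-58 were lost. A decrease under 2 fold was found for ugt-32 (F47C10.6), with 9.0, 8.84 and 8.87 in controls, 8.95, 9.34 and 9.11 at 0.003% and 8.07, 7.91 and 8.10 at 0.03%. All its high dose arrays were below the other 6 (estimate -0.88, SE 0.13, limma adjusted p = 0.00313). So were those of ugt-47 (R04B5.9), with 11.12, 11.03 and 10.94 in controls, 10.80, 11.01 and 10.81 at 0.003% and 10.28, 10.54 and 10.13 at 0.03% (estimate -0.72, SE 0.14, limma adjusted p = 0.00984). The smallest was that of ugt-22 (C08F11.8), with 10.77, 10.48 and 10.57 in controls, 11.19, 11.02 and 11.22 at 0.003% and 10.07, 10.15 and 9.96 at 0.03%. Its low dose arrays stood above the controls without passing the test (estimate 0.54, SE 0.12, limma adjusted p = 0.112) and its high dose arrays below them (estimate -0.55, SE 0.12, limma adjusted p = 0.0175), a call lost without control replicate 1 or high dose replicate 1 or 3 (adjusted p from 0.0525 to 0.0605 by limma).

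Set directly against each other, the doses differed in 23 ugt genes (35.9%), 12 higher and 11 lower at the high dose, where 16.8% of all genes were called, 7.34% higher and 9.49% lower. The arrays of the doses did not overlap for 36 members (56.2%) and for 34.0% of all genes. All 12 genes higher at the high dose were also up regulated there against control. They were ugt-2, ugt-7, ugt-11, ugt-18, ugt-19, ugt-20, ugt-25, ugt-28, ugt-29, ugt-50, ugt-51 and ugt-54. Of the 8 genes up regulated at both doses, ugt-7, ugt-11, ugt-19 and ugt-20 were higher still at the high dose, and the largest such step was that of ugt-11 (1.42, SE 0.14, limma adjusted p = 6.26e-04). For ugt-13 the step was 0.52 (95% interval 0.17 to 0.87, adjusted p = 0.0543 by limma) and for ugt-10 0.65 (95% interval 0.13 to 1.18, adjusted p = 0.0955 by limma), neither of which passed the test. For ugt-66 the difference was -0.16 (95% interval -0.42 to 0.10). In a fit without the control arrays ugt-7, ugt-29, ugt-47, ugt-48 and ugt-50 lost their calls. Leaving out low dose replicate 1 or 3 reduced the 11 genes lower at the high dose to 7, and the 1624 of all genes to 1351 or 1194. Calls of higher signal at the high dose that were lost when 1 array was left out were those of ugt-7 (without low dose replicate 2 or 3 or high dose replicate 1 or 2, adjusted p from 0.0557 to 0.0641 by limma), ugt-29 (any 1 array other than control replicate 3 and low dose replicate 2, adjusted p from 0.0554 to 0.115 by limma) and ugt-50 (any 1 array other than low dose replicate 2, adjusted p from 0.0548 to 0.123 by limma).

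Of the 11 genes lower at the high than at the low dose, 8 were also down regulated against control, namely ugt-6, ugt-22, ugt-32, ugt-46, ugt-47, ugt-57, ugt-60 and ugt-61. The other 3 were ugt-48, described above, and ugt-16 and ugt-63, which were called in neither comparison with control. The signal of ugt-63 (C04F5.7) was 8.10, 7.44 and 7.66 in controls, 8.68, 8.32 and 8.35 at 0.003% and 7.01, 7.67 and 7.57 at 0.03%. Its low dose arrays were the highest of the 9, and the high dose lay 2.05 fold below them (estimate -1.03, SE 0.24, limma adjusted p = 0.0243), a call lost without any 1 low dose array or high dose replicate 1 (adjusted p from 0.0508 to 0.0764 by limma). For ugt-16 (ZC443.6) the arrays read 8.09, 8.58 and 8.95 in controls, 8.69, 8.86 and 8.64 at 0.003% and 7.69, 7.84 and 8.02 at 0.03%, and the difference between the doses (estimate -0.88, SE 0.22, limma adjusted p = 0.0318) was lost without control replicate 2 or any 1 exposed array (adjusted p from 0.0543 to 0.101 by limma). The difference of ugt-47 between the doses was lost without any 1 array other than high dose replicate 2 (adjusted p from 0.0504 to 0.0947 by limma). The decrease of ugt-22 from low to high dose (estimate -1.09, SE 0.12, limma adjusted p = 0.00109) stood beside the estimate of -0.55 against control.

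**Figure D3:**
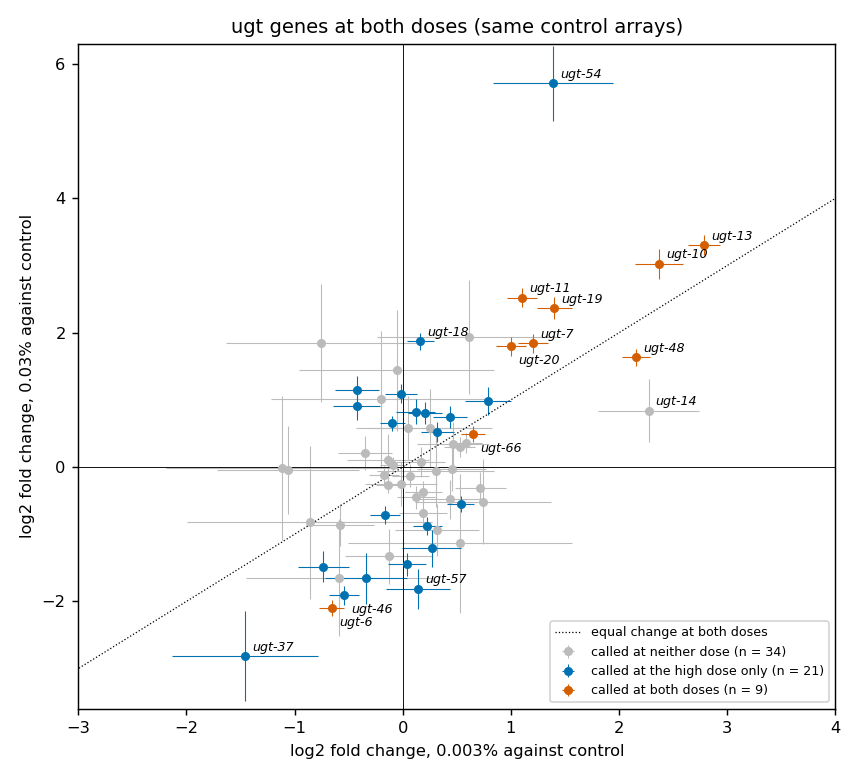
Log2 fold change of each of the 64 ugt genes at the low dose (horizontal axis) and the high dose (vertical axis), each against the same 3 control arrays, with bars of 1 SE. The 9 genes called at both doses lie in the quadrants of equal sign, 21 genes were called at the high dose only, 34 were called at neither, and the dotted line marks equal change.

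Many worm ugt genes lie next to each other. In the RefSeq gene order, 37 ugt genes fall into 12 runs in which neighbouring members are parted by at most 2 other protein coding genes, and 36 of these 37 were measured. At the high dose 10 of these 36 rose and 4 fell, and of the 28 members outside such runs 9 rose and 7 fell. Over all genes 9.0% rose and 11.0% fell at the high dose, so the decreases within the runs were near the share of all genes. At the low dose 1.05% of all genes rose and 0.508% fell. Chromosome V holds 40 of the 64 members. The longest run, on chromosome V, has in order ugt-12, ugt-11, ugt-9, ugt-10, ugt-67, ugt-8, ugt-14 and ugt-13, with 3 of its 8 genes up regulated at both doses and 0 down regulated. The up regulated genes ugt-11, ugt-10 and ugt-13 are not side by side in it. Between them, ugt-8 read 7.73, 7.52 and 8.23 in controls, 7.45, 8.25 and 7.37 at 0.003% and 7.71, 7.45 and 8.64 at 0.03%, with overlap of all groups and a high dose log2 fold change of 0.11 (95% interval -0.78 to 0.99). The gene ugt-14 (H23N18.2), next to ugt-13, read 4.39, 4.02 and 5.17 in controls, 7.41, 6.66 and 6.33 at 0.003% and 5.83, 4.51 and 5.76 at 0.03%. Its low dose arrays all stood above the controls and the high dose arrays, but neither the low dose (estimate 2.27, SE 0.47, limma adjusted p = 0.0802) nor the high against low dose difference (estimate -1.44, SE 0.47, limma adjusted p = 0.0838) passed the test. The control and high dose means of ugt-14 are dim, so no exact fold can be read from these estimates. At the other end of the run, ugt-12, on an _s_at probeset, had log2 fold changes of 0.53 (95% interval 0.19 to 0.86) at the low and 0.30 (95% interval -0.04 to 0.63) at the high dose.

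Neighbours did not always move the same way. In the run of ugt-5, ugt-4, ugt-6 and ugt-3, ugt-5 rose at the high dose, with 9.72, 10.18 and 9.45 in controls, 10.69, 10.57 and 10.47 at 0.003% and 10.73, 10.54 and 11.03 at 0.03% (estimate 0.98, SE 0.21, limma adjusted p = 0.0157), while ugt-6 fell as described above. Both are measured by _s_at probesets. Between them, ugt-4 had a dim control mean and scattered arrays, at 4.13, 6.86 and 6.54 in controls, 4.68, 3.93 and 6.65 at 0.003% and 7.70, 7.45 and 7.92 at 0.03%, and its difference at the high dose did not pass the test (estimate 1.85, SE 0.88, limma adjusted p = 0.201). In the run of ugt-18, ugt-16 and ugt-15, ugt-18 rose at the high dose, and ugt-15 had a log2 fold change of -0.13 (95% interval -0.53 to 0.27). Between them, the high dose arrays of ugt-16 lay below all controls without passing the test (estimate -0.69, 95% interval -1.20 to -0.18, limma adjusted p = 0.0659). In the run of ugt-26, ugt-27, ugt-28 and ugt-25, the last 2 rose at the high dose, while ugt-26 had a log2 fold change of -0.37 (SE 0.17, limma adjusted p = 0.184) and ugt-27 was dim in all groups. In the runs of ugt-40, ugt-37 and ugt-38 and of ugt-39, ugt-41 and ugt-36, 0 genes were called up at the high dose. Called down there were ugt-37 and ugt-41. Each of these genes other than ugt-41 had at least 1 dim group mean, so no exact fold can be read for them. The high dose log2 fold changes of ugt-40 and ugt-38 were -0.04 (SE 0.66) and -0.02 (SE 1.07). The pair of ugt-19 and ugt-20 rose at both doses. The calls of ugt-5 and of ugt-37 at the high dose are among those given above as lost when 1 array was left out.

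**Figure D4:**
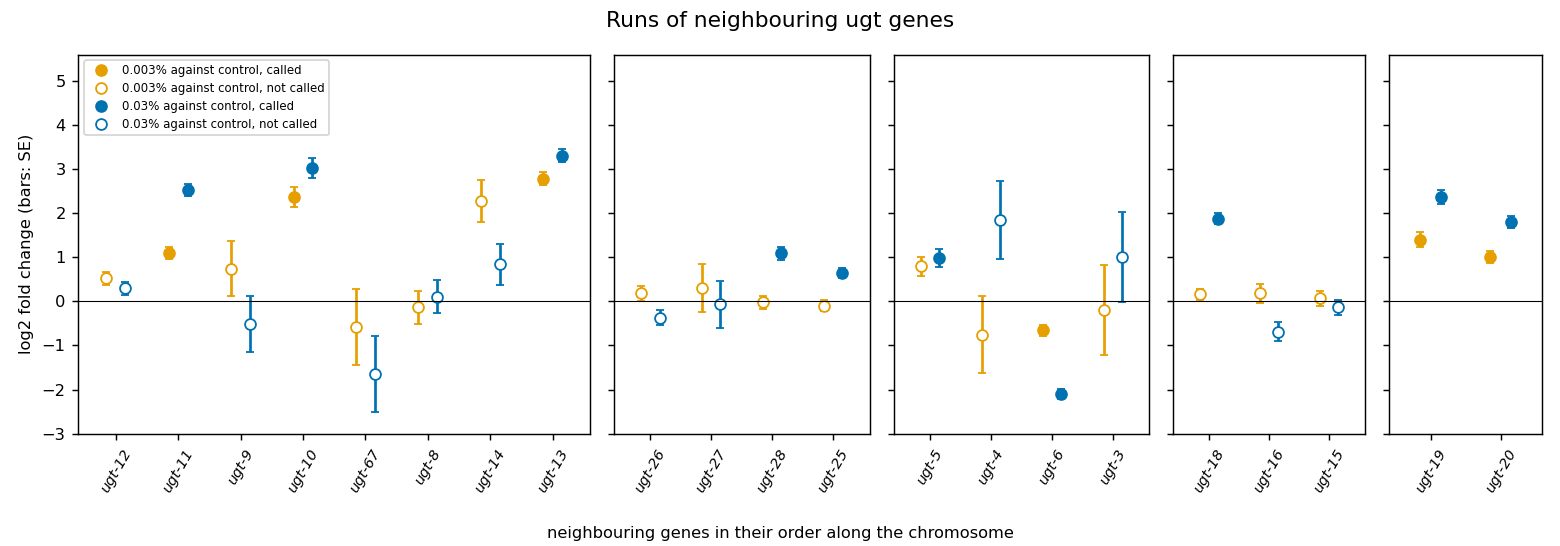
Log2 fold change against control (vertical axis, bars of 1 SE) for 5 runs of neighbouring ugt genes, in their order along the chromosome and without scale, at the low dose (orange) and the high dose (blue). Filled dots passed the test and open dots did not. In the longest run ugt-11, ugt-10 and ugt-13 rose at both doses with genes that did not pass the test between them.

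In all, 32 of the 64 ugt genes were called in no comparison. Some of these were measured tightly. The probeset of ugt-44 (F01D4.2) read 12.95, 12.88 and 12.96 in controls, 12.77, 13.05 and 12.70 at 0.003% and 13.04, 12.93 and 12.92 at 0.03%, and its high dose log2 fold change was 0.03 (95% interval -0.25 to 0.31). For ugt-23 (C17G1.3) the arrays read 12.05, 11.90 and 11.99 in controls, 11.81, 11.86 and 11.86 at 0.003% and 11.71, 11.88 and 11.54 at 0.03%, with a high dose log2 fold change of -0.27 (95% interval -0.54 to 0.00). The gene ugt-62 (M88.1) read 10.87, 11.18 and 10.98 in controls, 11.63, 11.66 and 11.50 at 0.003% and 11.12, 11.51 and 11.46 at 0.03%. Its low dose arrays all lay above the controls and its log2 fold changes were 0.58 at the low dose (SE 0.15, limma adjusted p = 0.142) and 0.35 at the high dose (SE 0.15, limma adjusted p = 0.142).

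Other members without a call were dim or scattered. The median SE of the high dose log2 fold change was 0.38 over the 32 members never called and 0.16 over the other 32. At least 1 group mean was dim in 20 members, of which 3 were called at the high dose (ugt-33, ugt-37 and ugt-54), against 27 of the 44 members with no dim group. In 13 members the SD of at least 1 group exceeded 1, and 11 of these were called in no comparison. Control replicate 2 lay well below the other control arrays in several of them, as in ugt-3, where the control arrays read 6.62, 2.93 and 6.64, ugt-17, with 7.25, 3.87 and 7.68, and ugt-36, with 6.67, 2.22 and 5.87. In others it was the highest control array, as in ugt-4, ugt-38, ugt-42 and ugt-52, so it was not low throughout. In ugt-52, replicate 2 was the highest array of every group. That gene read 4.67, 6.66 and 4.45 in controls, 5.47, 7.19 and 4.97 at 0.003% and 7.41, 8.16 and 6.05 at 0.03%. In ugt-17 the high dose arrays, at 7.57, 7.64 and 7.91, then stood 2.71 fold above the control mean without passing the test (estimate 1.44, SE 0.90, limma adjusted p = 0.337). The dim member ugt-35 read 2.41, 2.95 and 3.18 in controls, 3.81, 2.45 and 2.42 at 0.003% and 2.91, 4.18 and 3.23 at 0.03%, where a difference between the groups was not detectable at this signal.

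Of 8 genes that supply or use the UDP-sugars of these enzymes, listed from general knowledge, 7 were measured (gale-1 had no probeset of its own). Of these 1 fell and 0 rose at 0.03%, where 20.0% of all genes were called, and 0 were called at 0.003%, where 1.55% of all genes were. The gene called was sqv-4, which encodes the UDP-glucose dehydrogenase that makes UDP-glucuronic acid. It read 11.82, 11.58 and 11.53 in controls, 11.49, 11.46 and 11.46 at 0.003% and 11.03, 10.94 and 10.91 at 0.03%, with the high dose arrays below all others (estimate -0.68, SE 0.11, limma adjusted p = 0.00441). The glycogen synthase gene gsy-1 had a high dose log2 fold change of -0.59 (SE 0.22, limma adjusted p = 0.108), sqv-1, for the enzyme that turns UDP-glucuronic acid into UDP-xylose, -0.20 (SE 0.26, limma adjusted p = 0.663), and sqv-7, a nucleotide sugar transporter of the Golgi, -0.02 (SE 0.17, limma adjusted p = 0.954).

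The regulators listed are known from stress and xenobiotic responses. Of 15 listed, 14 were measured (hif-1 had no probeset of its own). Of these, 6 rose and 1 fell at the high dose, where 9.0% of all genes rose and 11.0% fell. At the low dose 1 rose and 0 fell, where 1.05% of all genes rose. The gene called at the low dose was wdr-23, which encodes a repressor of the transcription factor SKN-1, with 9.80, 9.42 and 9.50 in controls, 10.68, 10.34 and 10.75 at 0.003% and 11.73, 11.70 and 11.51 at 0.03%. It stepped up from group to group, at log2 fold changes of 1.02 (SE 0.16, limma adjusted p = 0.0253) and 2.08 (SE 0.16, limma adjusted p = 1.26e-04). The low dose call was lost without control replicate 2 or 3, low dose replicate 1 or 3 or high dose replicate 1 or 2 (adjusted p from 0.0553 to 0.107 by limma). The gene of SKN-1 itself, the worm counterpart of the Nrf factors, read 10.80, 11.36 and 11.74 in controls, 11.29, 11.76 and 11.26 at 0.003% and 12.08, 12.19 and 12.25 at 0.03% (estimate 0.87, SE 0.25, limma adjusted p = 0.0474 at the high dose). That call was lost without any 1 array other than control replicate 3 and low dose replicate 2 (adjusted p from 0.0646 to 0.122 by limma). Also up at the high dose were nhr-8, a nuclear hormone receptor gene with a part in xenobiotic resistance (estimate 0.81), the p38 kinase gene pmk-1 (0.60) and its upstream kinase gene sek-1 (0.58), and the intestinal GATA factor gene elt-7 (0.92). Of these 4, sek-1 lost its call without control replicate 1 or 3 or any 1 high dose array (adjusted p from 0.0702 to 0.0933 by limma). The Mediator subunit gene mdt-15 fell by 0.53 on the log2 scale (SE 0.13, limma adjusted p = 0.0239), a call lost without any 1 control or high dose array (adjusted p from 0.0511 to 0.0829 by limma).

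The other detoxification families are given beside the ugt genes as counts, without a test of the difference. Over all genes 9.0% rose and 11.0% fell at the high dose, and 1.05% rose and 0.508% fell at the low dose. Of 73 cytochrome P450 genes, 8 rose and 8 fell at the high dose (21.9% called, near the 20.0% of all genes), and 0 rose and 2 fell at the low dose. Of 45 glutathione S-transferase genes, 22 rose and 8 fell at 0.03% (66.7% called), and 18 rose and 0 fell at 0.003%. Of 21 ABC transporter genes of the pgp and mrp classes, 6 rose and 2 fell at 0.03% (38.1% called), and 4 rose and 0 fell at 0.003%.

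Markers of the tissues in these whole worms were counted as well, where over all genes 9.0% rose and 11.0% fell at the high dose. In the intestine, where much of a worm's detoxification takes place, 5 of 10 markers were down and 1 was up regulated at the high dose, with a log2 summed signal from 16.78 to 16.83 on the control arrays, 16.74 to 16.88 at the low dose and 16.40 to 16.49 at the high dose. That sum is weighted to the brightest probesets, so it does not describe the 10 markers as a group. These are asp-1, with means of 15.89 in controls and 15.76 at the high dose, and act-5, with 14.64 and 13.20. None of the 10 intestinal markers was called at the low dose. Of the hypodermal markers 5 of 6 fell at the high dose, of the germ line markers 4 of 5 and of the body wall muscle markers 2 of 5, and 1 of 6 neuronal and 1 of 3 pharyngeal markers rose. Of the yolk markers 2 of 3 fell at each dose, where 0.508% of all genes fell at the low dose, and neither of the 2 sperm markers measured was called. The part of these shifts in the changes of the ugt genes was not tested.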

How the data were processed

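Whole worm RNA of 9 samples was measured on Affymetrix C. elegans arrays. The values are log2 signals as deposited by the authors. The submitters' processing notes name Partek 6.4 and MAS5, whereas the methods name RMA, so the sources do not settle which summary was used. Of the deposited values, 41 lay below 0. No columns of the authors' own comparisons were present. Of 22625 probesets, 20766 are assigned to 1 gene by the platform annotation, with symbols updated through RefSeq (WBcel235), and for 17118 genes the brightest of these was kept, by its mean over the arrays, as in the methods. Groups came from the sample labels. The 3 groups were fitted in 1 linear model with limma 3.58.1 in R 4.3.3, with p-values adjusted over all genes, in place of the analysis of variance of the methods. Figures were drawn with matplotlib 3.10.9. The scripts were tested on simulated data. The members and lists were chosen with earlier results of these data known. Given by every array are members called at the low dose, the 10 largest increases and 10 largest decreases called at the high dose, and the 3 members with the smallest high dose difference among the 10 with the highest signal. The rule also took the 5 highest and 5 lowest control signals, which are not ranked here because signals of different probesets depend on their probes. The same limit holds for the choice among the 10 with the highest signal and for the dim level. Other members are named for their runs of neighbours or after their values were seen. The 21 alternatives changed the moderation, fold threshold, dim gene filter, scaling, probeset choice, variance model, samples fitted, replicate block or arrays left out. Neighbours came from the RefSeq gene order, and no coordinates or sequences are given, since the build of the array design is not given in the sources used here.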

Additional observations from a re-analysis of the deposited data

How the results depend on the processing

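None of the fold changes of the members changed direction while called under the 21 alternatives. Of the calls, 20 of 30 at the high dose, 5 of 9 at the low dose (ugt-7, ugt-10, ugt-13, ugt-19 and ugt-48) and 16 of 23 between the doses passed under every alternative that measured the gene. The counts moved by over 1.5 times as follows. With the dimmer 50% of genes left out, which keeps 32 members, 7 members fell at 0.03% and 2 at 0.003%. Of the 8559 genes kept there, 2238 fell at 0.03% and 226 at 0.003%. In that setting the members thus fell no more often at 0.03% than the genes kept. With the dimmest 25% left out, which keeps 51 members, 18 were lower at the high than at the low dose. So were 1945 of the 12838 genes kept. Fitting only the groups compared, 5 genes rose and 0 fell at the low dose. Other settings raised the number of low dose increases, though not by over 1.5 times. With the dimmer 50% of genes left out, 12 members and 307 of all genes kept rose at 0.003%. A variance trend with robust estimation gave 11 members and 316 of all genes up at that dose. The single decrease at the low dose became 0 with quantile normalization and 0 without _s_at and _x_at probesets, where ugt-6 has none left, and 2 with a variance trend and robust estimation. The cause was not tested for the other changes. Leaving out 1 array in turn gave 14 to 18 genes up and 8 to 12 down at the high dose, 6 to 8 up and 0 to 1 down at the low dose, and 9 to 12 higher and 7 to 12 lower between the doses. Over all genes this gave 1163 to 1551 up and 1274 to 1829 down at the high dose. At the low dose it gave 122 to 154 up and 34 to 75 down, and between the doses 840 to 1131 higher and 1194 to 1410 lower. With the replicate number as a block, 5 genes rose and 0 fell at the low dose, 18 rose and 10 fell at the high dose, and 11 were higher and 9 lower between the doses. The block ended the calls of ugt-6, ugt-11, ugt-20 and ugt-66 at the low dose, of ugt-5, ugt-37 and ugt-58 at the high dose, and of ugt-29, ugt-48, ugt-50 and ugt-63 between the doses. It added calls of ugt-52, up at the high dose (limma adjusted p = 0.00873) and higher between the doses (limma adjusted p = 0.0334). The mean of probesets ended the call of ugt-48 between the doses, and leaving out _s_at and _x_at probesets those of ugt-66 at the low dose and of ugt-50 between the doses. Arrays of equal number deviated together at correlations of -0.025 to 0.033 across genes, and arrays of unequal number at -0.045 to 0.039. Such correlations over all genes cannot exclude that arrays of equal number shared a culture or batch, which the labels do not give. Over all genes, the low dose calls of 179 up and 87 down became 102 and 37 with only the groups compared and 120 and 40 with the replicate block. They became 193 and 100 with quantile normalization, 316 and 229 with the variance trend, and 129 and 56 without _s_at and _x_at probesets. With the block, 1331 of all genes rose and 1515 fell at the high dose, and 1037 were higher and 1308 lower between the doses. Dim signals and 3 arrays per group limit what could be detected.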

Other observations

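Probesets that were not used gave a second reading for a few members. The other probeset of ugt-48, an _s_at probeset, differed from control by 2.25 on the log2 scale at 0.003% and 1.85 at 0.03%, beside 2.16 and 1.63 for the probeset used. For ugt-46 both probesets are marked _s_at, and the second fell by 0.40 and 1.58 at these doses, beside -0.55 and -1.91. For ugt-50, a gene with 3 probesets, the unused pair read 1.22 and 0.94 above control at the high dose and 0.08 each at the low dose, beside 0.81 and 0.21 for the probeset used. A probeset shared by ugt-22 and Y43D4A.2 was left out of all comparisons. Its high dose mean was -0.44 from control and its low dose mean 0.50 above it, and ugt-22 on its own probeset likewise lay below control at the high dose and above it at the low dose.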
